A study of Rattus norvegicus and Mus musculus with 10 samples.

Results

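The mast cells of mouse skull dura were the cells that the authors' annotation places in its cluster named mast. There were 19 of them in the library from mice with experimental autoimmune encephalomyelitis (EAE) and 234 in the naive library, 253 of 7355 annotated mouse cells. EAE is a model of multiple sclerosis in which the immune system is raised against myelin. The EAE library came from 3 pooled C57BL/6 mice taken at the height of actively induced disease. The naive library came from 4 pooled unimmunized C57BL/6 mice. Per the labels' protocols, dural cells were sorted for CD45 on their surface, leaving out those that an injected CD45 antibody had reached through the blood, and were captured with 3' droplet chemistry. The characteristics give EAE as the condition of every mouse sample, so the groups follow the titles and the deposited condition of each barcode. Each condition was 1 library of pooled mice, so replicate error could not be measured and no test was run. Intervals are 95% and cover counting error only.

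Mast cells are long-lived tissue leukocytes that store histamine, serotonin, heparin-like proteoglycan and proteases in granules and release them when IgE on their high-affinity receptor is cross-linked by antigen. Connective tissue mast cells, the type found in skin and around dural vessels and nerves, make chymases, tryptases and carboxypeptidase A3 and carry the receptor Mrgprb2, which responds to cationic peptides and drugs. Mucosal mast cells make the chymases Mcpt1 and Mcpt2 instead.

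The serine proteases below are among the genes that most set these cells apart. They include related pairs, which may matter for assigning short reads. The stretches shown are coding sequence of each gene around the active site, in mouse genome build GRCm38 with GENCODE M21, written along the transcript. Each runs across the junction of exons 4 and 5 of 5, so its coordinates take in the intron between them. Capitals mark the 15 bases that encode the conserved motif around the catalytic serine.
Mcpt4, a chymase, chr14:56060062-56060513, minus strand: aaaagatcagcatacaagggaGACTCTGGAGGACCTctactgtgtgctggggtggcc
Cma1, a chymase, chr14:55941759-55942143, minus strand: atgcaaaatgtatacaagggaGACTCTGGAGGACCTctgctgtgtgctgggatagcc
Tpsb2, a tryptase, chr17:25367591-25367720, plus strand: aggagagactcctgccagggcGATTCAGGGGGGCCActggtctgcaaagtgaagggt
Tpsab1, a tryptase, chr17:25343545-25343673, minus strand: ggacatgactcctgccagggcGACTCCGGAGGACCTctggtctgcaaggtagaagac
Tpsg1, a membrane-anchored tryptase, chr17:25373853-25373996, plus strand: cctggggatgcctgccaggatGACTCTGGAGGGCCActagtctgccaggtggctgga

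The chymases Mcpt4 and Cma1 matched at 46 of these 57 bases (80.7%) and at all 15 motif bases. The tryptases Tpsb2 and Tpsab1 matched at 41 of 57 bases (71.9%), with 10 of the 15 motif bases shared. Over the last 300 transcript bases, where a 3' assay reads, identity was 46.7% for the chymase pair and 53.6% for the tryptase pair. The other pairs of these genes ran from 46.6 to 50.6% there. Whether reads were divided between such relatives was not tested. Both chymase genes lie on chromosome 14 and the 3 tryptase genes lie near each other on chromosome 17. Cpa3, which encodes carboxypeptidase A3, a metalloprotease of another family, lies at chr3:20215620-20242181.

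The annotated EAE library held 59256418 UMIs in 4579 cells and the naive library 15007864 in 2776 cells. The labels state 3900 ± 1100 cells per mouse sample (SEM). The files held 5000 EAE and 3126 naive barcodes, a mean of 4063 ± 937 (SEM), of which 91.6% and 88.8% had a cluster. The shallowest annotated EAE cell had 5722 UMIs, whereas annotated naive cells began at 503 UMIs. The libraries also differed in sex-linked RNA. Xist, made from the inactive X chromosome of female cells, had 0 UMIs in the EAE library and 3675 in the naive library, and genes of the Y chromosome had 6427 UMIs in the EAE library and 379 in the naive library. Condition and sex make-up therefore cannot be told apart in any comparison here. Among 8126 barcodes, 8 sequences occurred in both libraries, and 2 naive and 0 EAE mast cells were among them.

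The EAE mast cells had a median of 7417 UMIs (range 6095 to 19898) and 2155 genes per cell. The naive mast cells had a median of 1702 UMIs (503 to 25782) and 667 genes. Mast cells lay below the median depth of their library, at 63.2% of it in EAE and 40.9% in naive dura. In EAE some lymphocyte clusters were as shallow, such as CD4 T cells at 62.3%, while others, such as regulatory T cells at 102%, were not. In naive dura no cluster had a lower median than the mast cells. Mitochondrial RNA made up a median of 2.76% of a cell's UMIs in EAE mast cells and 1.38% in naive mast cells. RNA of ribosomal proteins made up a median of 8.98% in EAE and 15.8% in naive mast cells. Few naive mast cells were as deep as the EAE cells. Values are therefore also given for the 17 naive mast cells that reached 5722 UMIs, called the deep naive cells below. The deepest of them, with 25782 UMIs, also carried class II RNA and is among the mixed cells defined below.

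The cluster name was checked against 5 defining genes, Cpa3, Tpsb2, Mcpt4, Kit and Ms4a2. All 19 EAE cells had a UMI of at least 4 of the 5, and 16 had all 5. Among naive cells, 77 had all 5, 106 had 4, 45 had 3 and 6 had 2. Mucosal chymases were near 0. Mcpt1 had 0 EAE and 1 naive UMI, Mcpt2 had 2 EAE and 5 naive UMIs, and Mcpt9 had 0 in both. Mcpt8, which defines basophils, had 3 EAE and 6 naive UMIs. Prss34, a protease that basophils also make, was not near 0, with 31 EAE and 92 naive UMIs. Il3ra, also on the basophil list, had 16 EAE and 25 naive UMIs. Of the 5 genes on the mucosal list, 1 passed the count minimum given below. The cells thus carried the gene set of connective tissue mast cells, with scarcely any RNA of these mucosal chymases or of Mcpt8.

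Mast cells made up 0.415% of annotated cells in the EAE dura (19 of 4579, 0.250 to 0.647%), against 8.43% in the naive dura (234 of 2776, 7.42 to 9.53%). The share was 20.3-fold lower in EAE (12.7 to 34.4). The share was lower in EAE under every denominator tried, but its size depended on it. Among cells that reached 5722 UMIs, the share was 0.415% in EAE and 2.30% in naive dura (17 of 739), a 5.54-fold difference (2.71 to 11.3). Among lymphocytes and mast cells alone, it was 2.09% in EAE (19 of 909) and 11.5% in naive dura (234 of 2028), a 5.52-fold difference (3.46 to 9.33). With a naive minimum scaled to the mast cells' own depth, 1313 UMIs, the naive share was 5.34% and the difference 12.9-fold. Clusters of granulocytes and monocytes held larger shares of the EAE library, for example 14.5% of EAE and 2.88% of naive cells in cluster granulo1, so fewer mast cells and more of other leukocytes cannot be told apart from shares.

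**Figure D1:**
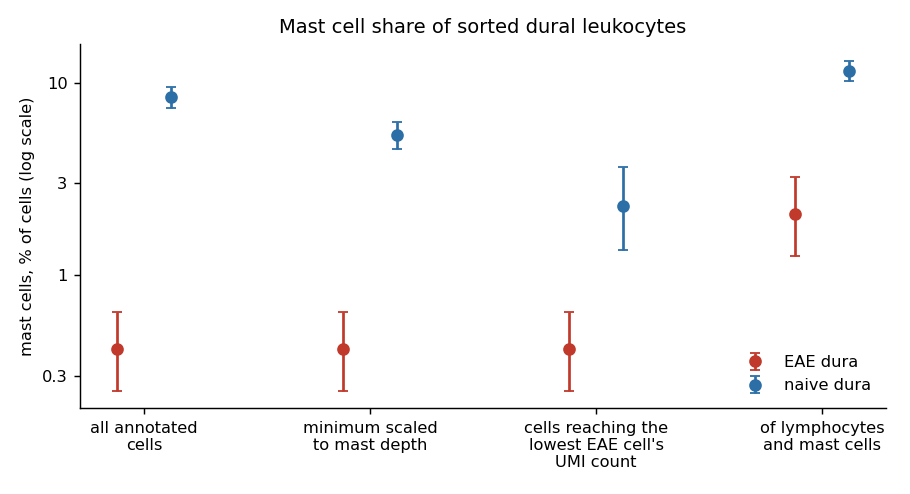
Share of mast cells (percent, log axis) in EAE and naive dura under 4 denominators or depth minimums, with 95% Clopper-Pearson intervals. EAE lies below naive under each, with the 20.3-fold gap over all annotated cells reduced to 5.54-fold among cells that reached 5722 UMIs.

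Levels below are a gene's UMIs per 1000000 summed UMIs of a group's mast cells (CPM), and differences are log2 ratios of EAE over naive. A gene was measured at 20 UMIs or more over both groups and called past 2-fold beyond 1 or below -1. Of 3625 measured genes, 417 were past 2-fold higher in EAE (11.5%) and 438 past 2-fold lower (12.1%), with a median log2 ratio of 0.02. A list of mast cell genes is read against these shares. With 0 UMIs in the smaller EAE group, a gene needed 22 naive UMIs to be called lower.

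The 25 genes that most set naive mast cells apart from the rest of their library, chosen by that ratio, described the same cell in both conditions. Meis2, a homeobox transcription factor, led with 137 CPM in EAE mast cells and 227 CPM in naive mast cells, against 0.0694 CPM in the other naive cells. Other leading genes included Slc45a3 (a solute carrier of the prostein family), Cyp11a1 (the enzyme that starts steroid synthesis), Slc6a4 (the serotonin transporter), Gata2, Mrgprb1, Mrgprb2, Cd200r3, Adora3 and Hs6st2, a heparan sulfate sulfotransferase. Cyp11a1 stood at 747 CPM in EAE and 500.3 CPM in naive mast cells. Slc6a4 stood at 490 CPM in EAE and 337 CPM in naive mast cells, and no other cluster passed 1 CPM of it in either library. Slc45a3 stood at 269 CPM in EAE and 180 CPM in naive mast cells.

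The major proteases were abundant in both conditions, with Tpsb2 and Cpa3 higher and Tpsab1 lower in EAE, none of them past 2-fold in the pooled ratio. The 6 genes Mcpt4, Cma1, Tpsb2, Cpa3, Tpsab1 and Tpsg1 held a median of 13.4% of a cell's UMIs in EAE mast cells (2.98 to 18.4%), against 8.33% in naive mast cells and 10.6% in the deep naive cells. The EAE range lay within the naive one, which began at 0.118%. Mcpt4, the main chymase, which degrades fibronectin and several cytokines, had a median of 43445 CPM per EAE cell (12262 to 75903) and 36254 per naive cell (0 to 108467), and a pooled log2 ratio of 0.13 (0.09 to 0.17). Cma1 had medians of 23790 CPM in EAE and 20115 CPM in naive cells and a log2 ratio of 0.08 (0.03 to 0.14). Those differences were small beside the spread between cells.

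Tpsb2, the tryptase stored as heparin-bound tetramers, had a median of 32500 CPM per EAE cell (7287 to 54398) and 12556 per naive cell (0 to 42826). Its pooled level was 28354 CPM in EAE and 18013 CPM in naive cells, a log2 ratio of 0.65 (0.60 to 0.70), and 0.49 against the deep naive cells. Cpa3 had a median of 19561 CPM per EAE cell (4473 to 35249) and 9431 per naive cell (0 to 30791), with a log2 ratio of 0.65 (0.59 to 0.71) and 0.50 against the deep naive cells. These were the largest pooled differences among the 6 genes, and neither was past 2-fold. With each cell weighted equally, however, Tpsb2 was past 2-fold, at a log2 ratio of 1.14. Tpsab1 stood lower, at 1708 CPM in EAE and 2524 CPM in naive cells, a log2 ratio of -0.56 (-0.75 to -0.38). Tpsg1 had 364 CPM in EAE and 424 CPM in naive cells, a log2 ratio of -0.22 whose interval included 0 (-0.65 to 0.19).

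**Figure D2:**
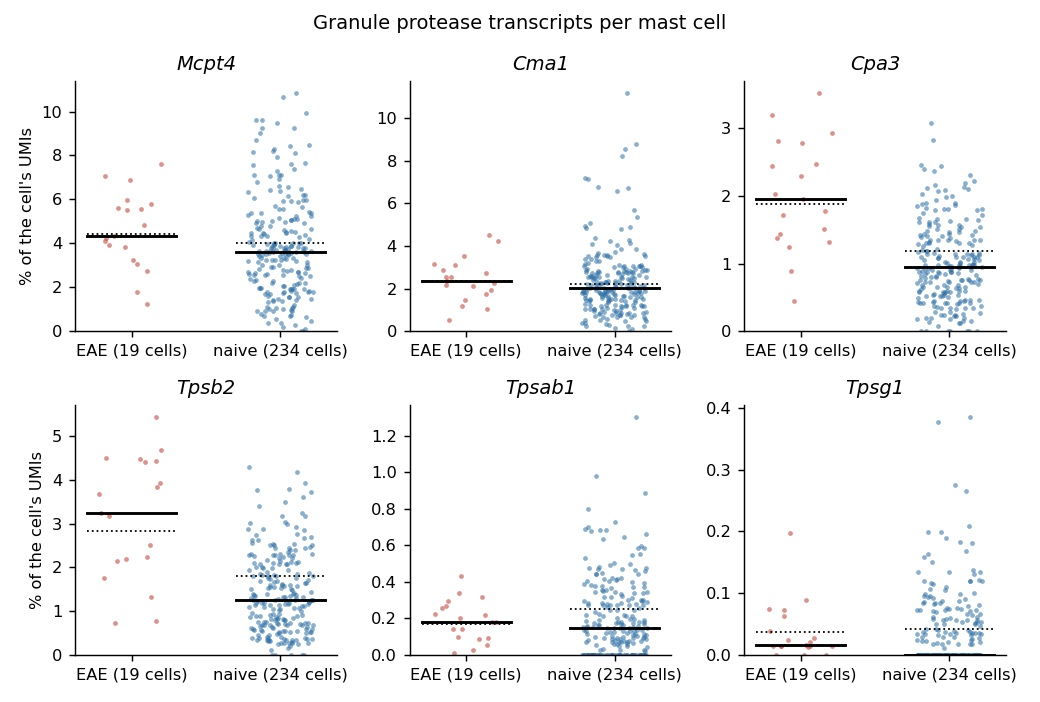
Percent of each mast cell's UMIs taken by 6 protease genes, EAE left of naive for each gene, with 1 point per cell, a solid line at the median over cells and a dotted line at the share of the summed UMIs. The medians of Tpsb2 and Cpa3 stand higher in EAE, and the ranges of the cells overlap for every gene.

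Of 18 granule protease genes, 12 were measured, 3 past 2-fold higher and 2 past 2-fold lower, with a median of 0.19. The higher ones were lysosomal cathepsins. Ctsd, an aspartic protease, stood at 854 CPM in EAE and 400.2 CPM in naive mast cells, a log2 ratio of 1.09. Ctsc, which activates chymases by trimming their proforms, had 1.06, and Ctsz, a carboxypeptidase, had 1.07. Against the deep naive cells these were 0.99, 0.31 and 0.42, so none was then past 2-fold. All 3 were also higher in EAE in the other clusters compared. Ctsd ran from 0.09 in CD8 T cells to 1.22 in ILC, and Ctsc from 0.14 in CD8 to 1.21 in gamma delta T cells. Ctsz ran from 0.39 in cluster myeloid1 to 2.29 in NK cells. Ctsl, a cysteine protease, was lower, at 47.8 CPM in EAE and 234 CPM in naive cells (log2 ratio -2.29, -3.53 to -1.27). Cma2, another chymase, had 6 EAE and 50 naive UMIs and a log2 ratio of -1.24 (-2.76 to -0.02). Prss34, a protease shared with basophils, had 31 UMIs in 3 EAE cells and 92 in 16 naive cells, with 77.4% of the EAE UMIs in 1 cell.

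Genes of the other granule contents gave 1 call higher and 2 lower among 12 measured of 14, with a median of -0.15. Hdc, which makes histamine, stood at 5053 CPM in EAE and 5454 CPM in naive mast cells (log2 ratio -0.11) and was found in 19 of 19 EAE and 214 of 234 naive cells. Srgn, the core protein of the granule proteoglycan, stood at 6057 CPM in EAE and 8268 CPM in naive cells, a log2 ratio of -0.45. Both genes were detected in every EAE cell, and Srgn in every naive cell too.

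For serotonin, Tph1, the first enzyme of its synthesis, stood at 609 CPM in EAE and 879 CPM in naive cells (-0.53, -0.85 to -0.22). Slc18a2, the vesicular monoamine transporter that loads amines into granules, stood at 179 CPM in EAE and 370 CPM in naive cells, a log2 ratio of -1.04 (-1.65 to -0.49), and was -0.41 against the deep naive cells. Hs3st1, a heparan sulfate sulfotransferase, stood at 197 CPM in EAE and 607 CPM in naive cells (-1.62, -2.18 to -1.11), and -1.73 against the deep naive cells. Hs3st1 also had a UMI in 0.112% of EAE and 21.8% of naive CD4 T cells, after each cell was thinned to 1000 UMIs. The call higher was Hexa, a subunit of the granule enzyme beta-hexosaminidase, with 23 EAE and 31 naive UMIs (1.39, 0.54 to 2.21).

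The exocytosis list, the SNARE proteins and their partners that fuse granules with the membrane, had 1 gene higher of 7 measured of 15. That gene was Stxbp2, a syntaxin-binding protein, with 13 EAE and 16 naive UMIs (log2 ratio 1.52). Rab27b, a small GTPase that docks granules, was the best counted of the list, at 0.02. Most of this list was under the 20 UMI minimum.

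The receptor for IgE has an alpha chain that binds IgE (Fcer1a), a beta chain that amplifies the signal (Ms4a2) and a gamma chain that transmits it (Fcer1g). Fcer1a stood at 1219 CPM in EAE mast cells and 585 CPM in naive mast cells, a log2 ratio of 1.06 (0.80 to 1.31). It was 1.46 against the deep naive cells and 0.88 once the cell with the most UMIs was left out on each side. Fcer1a had a UMI in 59.7% of EAE and 41.9% of naive mast cells thinned to 1000 UMIs, and unthinned in 17 of 19 EAE and 128 of 234 naive cells. The CD4 T cells of both libraries had no UMI of it. The ratio thus lay on either side of the 2-fold line, depending on those choices. Ms4a2 had a log2 ratio of 0.22 (-0.24 to 0.67) and Fcer1g of -0.32 (-0.48 to -0.16).

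Of 20 genes of the receptor and its signalling, 15 were measured, 3 past 2-fold higher and none lower, with a median of 0.03. Besides Fcer1a, these were Syk, the kinase that binds the gamma chain, with 16 EAE and 19 naive UMIs (1.57, 0.51 to 2.61), and Vav1, an exchange factor, with 9 EAE and 13 naive UMIs (1.29, -0.12 to 2.62). Lyn, the kinase that starts the cascade, had 0.74 (0.15 to 1.32). The adaptors Lat (0.00) and Lat2 (0.03) and the lipid phosphatase Inpp5d (0.03) stood at the same level in both groups within counting error.

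Kit, the receptor for stem cell factor on which mast cells depend, stood at 627 CPM in EAE and 773 CPM in naive mast cells, a log2 ratio of -0.30 (-0.62 to 0.01). Il1rl1, the receptor for IL-33, stood at 550 CPM in EAE and 687 CPM in naive cells (-0.32, -0.66 to 0.01). Both intervals reached past 0, and against the deep naive cells the ratios were 0.37 for Kit and 0.18 for Il1rl1. Csf2rb, the shared beta chain for IL-3, IL-5 and GM-CSF, was higher, at 561 CPM in EAE and 321 CPM in naive cells (0.81, 0.44 to 1.17). Il3ra, the IL-3 receptor alpha chain, had 16 EAE and 25 naive UMIs (1.17, 0.17 to 2.13). Il4ra, with 3 EAE and 27 naive UMIs, was the 1 gene lower of the 13 measured of 17, and the list's median was 0.43.

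Among receptors for other ligands, 10 of 30 were measured, 2 were past 2-fold higher and none lower. Mrgprb1 stood at 1051 CPM in EAE and 1007 CPM in naive cells (0.06) and Mrgprb2 at 269 CPM in EAE and 388 CPM in naive cells (-0.53, -1.03 to -0.06). Gpr65, which senses acid, stood at 1081 CPM in EAE and 1911 CPM in naive cells (-0.82, -1.06 to -0.59). Adora3, the adenosine receptor that promotes rodent mast cell degranulation, stood at 484 CPM in EAE and 265 CPM in naive cells (0.87, 0.47 to 1.27). The calls were P2rx4, an ATP-gated channel (1.39, 0.64 to 2.12), and Ptger3, a receptor for prostaglandin E2 (1.49, 0.27 to 2.69), with 29 and 12 UMIs in EAE cells. Against the deep naive cells P2rx4 was 3.62, a value that rested on 2 naive UMIs in 2 cells.

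Of the 13 genes on the list of inhibitory receptors, 8 were measured. All 8 lay above 0, with a median of 0.45, but 1 lay below 0 with each cell weighted equally. Past 2-fold higher was 1 of the 8, near the 11.5% of all genes. Lilrb4a, which carries inhibitory motifs and binds integrin, stood at 203 CPM in EAE and 49.2 CPM in naive mast cells, a log2 ratio of 2.05 (1.29 to 2.81). It was 1.85 against the deep naive cells and 2.22 without mast cells that also carried RNA of another cell type. A UMI of it was found in 18.2% of EAE and 3.13% of naive mast cells thinned to 1000 UMIs, against 2.65% of EAE and 0.847% of naive CD4 T cells. Cd200r3, counted in this list although it is an activating member of the CD200 receptor family in mice, had 454 CPM in EAE and 351 CPM in naive cells (0.37, -0.03 to 0.76).

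Of 29 cytokines and chemokines, 18 were measured. Past 2-fold, 2 of the 18 were higher and 8 lower in EAE, against 11.5% and 12.1% of all genes, and the median was -0.43. Many of the 8 rested on few naive cells, so the values are given gene by gene.

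Ccl2 and Ccl7 are chemokines that draw monocytes through the receptor Ccr2, and their genes lie next to each other on chromosome 11 (Ccl2 at chr11:82035571-82037453, Ccl7 at chr11:82045712-82047525). Ccl2 stood at 3261 CPM in EAE and 3406 CPM in naive mast cells, a log2 ratio of -0.06 (-0.20 to 0.07), with a UMI in 19 of 19 EAE and 194 of 234 naive cells. Ccl7 stood at 5107 CPM in EAE and 2323 CPM in naive mast cells, a log2 ratio of 1.14 (1.01 to 1.26). Only Ccl7 of these neighbours was past 2-fold.

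Ccl7 had a UMI in 18 of 19 EAE and 96 of 234 naive mast cells. Thinned to 1000 UMIs, the shares were 73.1% of EAE mast cells and 30.1% of naive mast cells, against 2.00% of EAE and 0.934% of naive CD4 T cells, whose median depths were 7318.5 UMIs in EAE and 3445 UMIs in naive dura. Ccl7 per cell ran from 0 to 24977 CPM with a median of 3850 in EAE, and from 0 to 54115 with a median of 0 in naive cells. The log2 ratio was 1.34 against the deep naive cells, 0.79 with each cell weighted equally and 0.99 without the highest cell on each side. More EAE cells held the transcript, while the highest naive cell exceeded every EAE cell. In both libraries mast cells had the highest level of Ccl2 and of Ccl7 of all 19 clusters, followed by cluster myeloid1, where Ccl7 stood at 557 CPM in EAE and 595 CPM in naive cells.

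Il4 and Il13, which encode type 2 cytokines and lie at chr11:53602982-53618669 and chr11:53631324-53634702, differed from each other. Il4 stood at 245 CPM in EAE and 853 CPM in naive mast cells, a log2 ratio of -1.80 (-2.30 to -1.34). It was found in 8 of 19 EAE and 150 of 234 naive cells, and 75.6% of the 41 EAE UMIs came from 1 cell. Thinned to 1000 UMIs, the shares with Il4 were 11.3% of EAE and 49.4% of naive mast cells, against 4.48% of naive CD4 T cells, some of which can make it, and no Il4 UMI in EAE CD4 T cells. Against the deep naive cells alone, however, the log2 ratio was -0.37, since Il4 was lowest in the deepest naive cells.

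Il13 stood at 693 CPM in EAE and 707 CPM in naive mast cells, a log2 ratio of -0.03 (-0.34 to 0.27). It was found in 17 of 19 EAE and 77 of 234 naive cells. Both cytokines were found together in 7 EAE cells, Il4 alone in 1, Il13 alone in 10 and neither in 1. Of the naive cells, 68 had both, 82 Il4 alone, 9 Il13 alone and 75 neither. Among the 105 naive cells of 2000 UMIs or more, these numbers were 56, 27, 6 and 16. Naive cells with Il4 alone thus outnumbered those with Il13 alone, and EAE cells showed the opposite order. Of the 17 deep naive cells, 17 had Il4 and 13 had Il13.

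Tnf, which mast cells can store preformed, stood at 633 CPM in EAE and 453 CPM in naive mast cells (0.48, 0.15 to 0.81). The same gene had log2 ratios of -1.50 in CD4 T cells, -1.89 in cluster mDC2 and -1.62 in cluster myeloid1 of the same libraries, where the medians over all genes were 0.22, 0.55 and 0.40. Il13 had -0.03 in mast cells and -4.36 in the ILC cluster, where the level was 67.7 CPM in EAE and 1390 CPM in naive cells. Whether these differences between clusters exceed animal variation was not tested.

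Csf1, a growth factor of macrophages, had 39 EAE and 51 naive UMIs (1.43, 0.79 to 2.06), with 43.6% of the EAE UMIs in 1 cell, and was 0.87 without the highest cell on each side. Tgfb1 had 0.96 (0.34 to 1.56). Vegfa, the endothelial growth factor, stood at 155 CPM in EAE and 407 CPM in naive cells (-1.39, -2.03 to -0.80) and was -0.99 against the deep naive cells.

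The remaining lower cytokines rested on small groups of naive cells. Cxcl2, a neutrophil chemoattractant, had 6 UMIs in 2 EAE cells and 258 in 27 naive cells (-3.61). Csf2, which encodes GM-CSF, had 5 UMIs in 3 EAE cells and 110 in 23 naive cells (-2.64). Areg, an epidermal growth factor receptor ligand, had 0 EAE UMIs and 126 in 11 naive cells, at least 11.9-fold lower against a floor of 3 counts over the EAE cells. Thinned to 1000 UMIs, 3.27% of naive mast cells and 24.5% of naive CD4 T cells had an Areg UMI. Csf2 was found in 5.52% of these mast cells and 19.1% of these T cells, and Cxcl2 in 7.59% and 16.2%. The shares of mast cells were thus lower than those of CD4 T cells in the same library. Other naive clusters held higher levels, with Areg at 5926 CPM and Csf2 at 3652 CPM in ILC, and Cxcl2 at 8195 CPM in cluster myeloid1. Whether mast cells or CD4 T cells made this RNA themselves was not tested. Ccl1 had 2 EAE and 180 naive UMIs, with 85.0% of the naive UMIs in 1 cell, and Ccl4 had 1 and 64, with 51.6% in 1 cell.

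Transcription factors that define mast cells were detected in both groups. Gata2 stood at 436 CPM in EAE and 560 CPM in naive mast cells (-0.36, -0.75 to 0.01) and Mitf, which drives granule genes with Gata2, at 191 CPM in EAE and 114 CPM in naive cells (0.75, 0.09 to 1.38). Mitf was 1.96 against the deep naive cells, past 2-fold higher, but this rested on 7 naive UMIs in 5 cells. Meis2 had -0.73 (-1.43 to -0.08). Over 13 measured of 20, 1 was past 2-fold higher and 3 lower, with a median of -0.67.

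The one higher over all cells was Spi1, which encodes PU.1, at 185 CPM in EAE and 62.8 CPM in naive cells (1.56, 0.82 to 2.29). Hes1, a repressor downstream of Notch, stood at 311 CPM in EAE and 1535 CPM in naive mast cells, a log2 ratio of -2.30 (-2.74 to -1.90), and -1.98 against the deep naive cells. Thinned to 1000 UMIs, 25.2% of EAE and 59.0% of naive mast cells had a Hes1 UMI, against 0.0694% of EAE and 10.6% of naive CD4 T cells. Hes1 was also lower in EAE in the other 7 clusters compared, with log2 ratios of -2.27 in CD8 T cells, -2.59 in ILC and -1.14 in cluster myeloid1. Lmo4 (-1.79) and Gata3 (-2.35, 2 EAE and 36 naive UMIs) were the others, and both were found in smaller shares of naive mast cells than of naive CD4 T cells. Lmo4 was found in 20.5% of these mast cells against 50.7% of these T cells, and Gata3 in 4.89% against 32.3%.

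Immediate early and stress genes made up a median of 4.63% of a cell's UMIs in EAE mast cells (2.11 to 10.8%) and 5.55% in naive mast cells (0.676 to 26.2%). In CD4 T cells the medians were 1.16% in EAE and 1.87% in naive dura. All 34 genes of the list were measured, 4 past 2-fold higher and 12 lower, with a median of -0.80. The same list had medians of -0.89 in CD4 T cells, -0.80 in CD8 T cells, -0.80 in gamma delta T cells and -0.86 in cluster mDC2, so the lower level in EAE was measured in other cells of these libraries too.

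Heat shock genes held the largest differences. Hspa1a had 6 EAE and 642 naive UMIs (-4.93, -6.38 to -3.80), and its log2 ratio was -6.12 in CD4 T cells and -3.86 in cluster myeloid1. Hspa1b had 1 EAE and 642 naive UMIs (-7.51), and reads of these near-identical genes may be divided between them. Dnajb1, a co-chaperone of Hsp70, stood at 812 CPM in EAE and 4438 CPM in naive mast cells (-2.45, -2.71 to -2.20). Hsph1 (-4.67) and Hspe1 (-2.86) were lower as well, and Hspe1 was -1.69 against the deep naive cells.

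Among immediate early genes, Jun stood at 10345 CPM in EAE and 10922 CPM in naive mast cells (-0.08), and Egr1 at 2383 CPM in EAE and 3729 CPM in naive cells (-0.65). Fos had -0.91 and Junb -1.02. Zfp36, which destabilizes cytokine mRNA, had -2.22 (-2.67 to -1.80), with -4.72 in CD4 T cells. Dusp1, a phosphatase of MAP kinases, had -1.48, with -3.19 in CD4 T cells. The 3 Nr4a receptors, nuclear receptors induced by activation, did not move together. Nr4a2 stood at 1027 CPM in EAE and 380 CPM in naive mast cells (1.44, 1.14 to 1.73), whereas Nr4a1 had -1.12 (-1.31 to -0.92) and Nr4a3 -2.14 (-2.77 to -1.57).

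Atf3 (1.34, 0.96 to 1.71) and Egr2 (1.61, 0.95 to 2.26), transcription factors induced by stress and activation, were also past 2-fold higher. Atf3 was found in 8 of 19 EAE and 37 of 234 naive cells, and Egr2 in 11 EAE and 35 naive cells. Of 19 genes of NF-kB and its feedback, 15 were measured, none was past 2-fold higher and 2 were lower. Nfkbia, the inhibitor induced by NF-kB itself, stood at 3118 CPM in EAE and 4114 CPM in naive cells (-0.40), and Tnfaip3 had -1.14 (-0.67 against the deep naive cells).

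**Figure D3:**
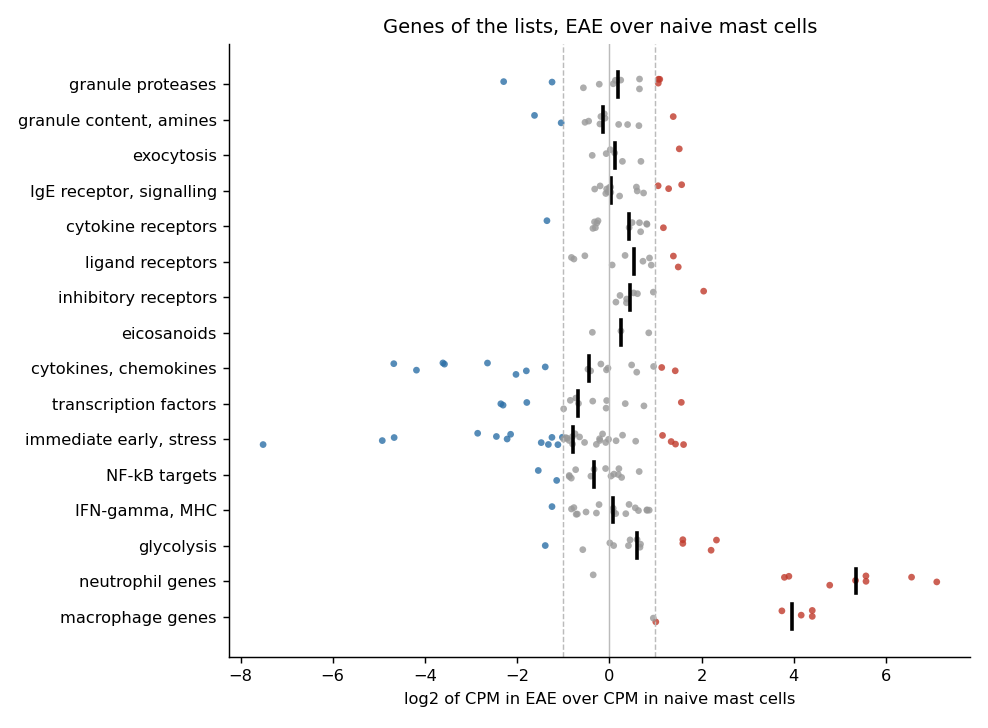
Log2 ratio of EAE over naive mast cells for each measured gene of 16 lists, with 1 point per gene, a bar at the list's median and dashed lines at 1 and -1. The stress list has its median at -0.80 and the cytokine list at -0.43, whereas the receptor lists have medians at or above 0.

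Type I interferon response genes gave 2 calls in each direction among 7 measured of 23. Isg15, a ubiquitin-like protein, stood at 203 CPM in EAE and 1396 CPM in naive mast cells (-2.78, -3.32 to -2.29), and 58.8% of its EAE UMIs came from 1 cell. Its log2 ratio was -1.89 against the deep naive cells and -3.81 without the highest cell on each side. In the other clusters compared, it ran from -2.18 in NK cells through -1.47 in CD8 and -1.28 in CD4 T cells to -0.72 in cluster myeloid1, -0.41 in mDC2, -0.37 in gamma delta T cells and -0.01 in ILC. Ifitm3, a membrane protein that hinders viral entry, had 76 EAE and 29 naive UMIs (3.21), with 76.3% of the EAE UMIs in 1 cell, and was 1.58 without the highest cell on each side. No common direction was seen.

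The class I antigen presentation genes H2-K1, H2-D1 and B2m were found in every EAE cell. H2-K1 stood at 1899 CPM in EAE and 1043 CPM in naive mast cells (0.86, 0.66 to 1.06) and H2-D1 at 1792 CPM in EAE and 1157 CPM in naive cells (0.63, 0.43 to 0.83), while their partner B2m had -0.51 (-0.74 to -0.28). Of 28 genes of interferon gamma response and class I, 18 were measured, with a median of 0.09, and none was past 2-fold higher. Without cells carrying RNA of other types, and likewise with each cell weighted equally, 2 of the 18 were past 2-fold higher and the median was 0.67. Against the deep naive cells, 5 of 15 were past 2-fold lower and the median was -0.52. The deep naive cells include the 25782-UMI cell with class II RNA, which held 320 of their 338 H2-Aa UMIs. How far these values rest on that cell was not tested. Class II RNA in naive mast cells rested on 1 cell, which held 76.7% of the H2-Aa and 78.5% of the Cd74 UMIs. With cells carrying RNA of other types left out, the log2 ratio of H2-Aa was 0.83 in place of -1.24.

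Glycolysis and hypoxia genes gave 4 calls higher and 1 lower among 13 measured of 18, with a median of 0.60. Pkm, pyruvate kinase, had 59 EAE and 45 naive UMIs (2.21, 1.62 to 2.80) and Eno1, enolase, 27 EAE and 19 naive UMIs (2.32, 1.42 to 3.25). In EAE, 47.5% of the Pkm and 51.9% of the Eno1 UMIs came from 1 cell. Ldha, lactate dehydrogenase, had 0.01 and was the best counted gene of the list. Without the cells that carried RNA of another cell type, Pkm had 1.56. Against the deep naive cells, Pkm had 1.26 and Eno1 0.71.

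RNA of other cell types was followed in each mast cell, since 7 of the 10 genes with the strongest higher calls belong to the neutrophil list. These were Lcn2, Ltf, Ngp, Camp, S100a8, S100a9 and Mmp8. The others were Chil3 and Hp, which neutrophils and monocytes can also express, and Lyz2, a lysozyme gene of myeloid cells. S100a8, an alarmin of neutrophils, had 3479 EAE and 446 naive UMIs, and in each library 1 cell held most of them, 94.9% of the EAE and 93.7% of the naive UMIs. Genes of the neutrophil list made up 32.2% of the UMIs of that EAE cell and 31.4% of those of that naive cell, both of which had a UMI of all 5 mast cell markers. Hp had 42 EAE and 0 naive UMIs, with 71.4% of the EAE UMIs in 1 cell. Against a floor of 3 counts Hp was 49.3-fold higher, with a lower 95% bound of 38.4-fold.

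Outside that cell, neutrophil RNA was low and even in EAE. The list's median share of a cell's UMIs was 0.377% in EAE mast cells, with a range of 0.257 to 0.545% without the mixed cells defined next, and 0 in naive mast cells. In CD4 T cells the medians were 0.364% in EAE and 0.0165% in naive dura. S100a8 had a UMI in 72.0% of EAE mast cells and 70.6% of EAE CD4 T cells thinned to 1000 UMIs, against 5.54% of naive mast cells and 5.25% of naive CD4 T cells. The shares in mast cells were thus close to those of a cell type that should lack the gene, and are read as background. All 14 neutrophil genes had a UMI in EAE mast cells, and 13 had one in naive mast cells.

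**Figure D4:**
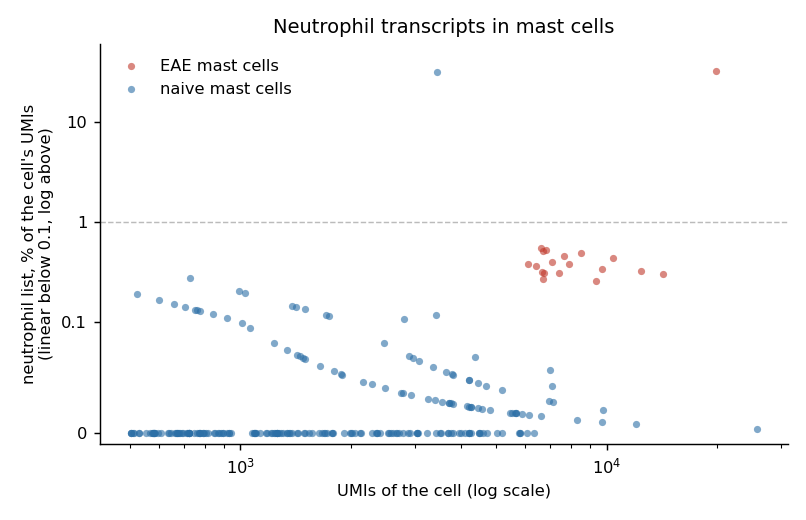
Percent of each mast cell's UMIs from the neutrophil list against its UMI count, for EAE and naive cells, with a dashed line at 1%. Only 1 cell of each library lies above the line, at 32.2% in EAE and 31.4% in naive dura, while the other EAE cells lie from 0.257% upwards in a narrow band.

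Besides these, 1 EAE cell had 2.89% of its UMIs from macrophage genes, with 28 of the 36 C1qa UMIs, and 2 naive cells had 4.87% and 2.53% from class II genes. These 5 cells are called mixed, and none of them was marked by the doublet caller. The macrophage list had a median share of 0.607% in EAE mast cells (0.253 to 2.89%) and 0.193% in naive mast cells (0 to 0.906%), against 0.0796% in EAE and 0 in naive CD4 T cells. Most of it was Apoe, a lipid carrier, which stood at 5071 CPM in EAE and 2522 CPM in naive mast cells (1.01, 0.88 to 1.13), and had a UMI in 97.6% of EAE and 81.0% of naive mast cells thinned to 1000 UMIs, against 27.7% of EAE and 3.17% of naive CD4 T cells. Of 8 genes of innate lymphoid cells, 6 were measured and 4 were lower in EAE, with a median of -1.56, Areg and Gata3 among them. Igkc, the antibody kappa chain, had 16 EAE and 171 naive UMIs (-1.60), and stood at 95.6 CPM in EAE and 290.0 CPM in naive mast cells, against 122 CPM in EAE and 251 CPM in naive CD4 T cells. No gene of the dendritic cell, T cell, NK cell, erythroid or stromal lists reached 20 UMIs. Without the 2 mixed EAE and 3 mixed naive cells, 373 genes were past 2-fold higher (10.9%) and 418 lower (12.2%) of 3416.

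Of the 10 genes with the strongest lower calls, 5 were heat shock genes (Hspa1b, Hspa1a, Hsph1, Hspb1 and Dnajb1) and 3 were the cytokines Areg, Ccl1 and Cxcl2. The others were Isg15 and Xist. Xist had 0 EAE UMIs and 252 in 118 naive mast cells, 23.9-fold lower against the floor, with a lower 95% bound of 19.3-fold. Hspb1 had 81 naive UMIs, 95.1% of them in 1 cell.

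Naive mast cells differed among themselves with depth, which frames the comparison with the deeper EAE cells. From naive cells under 1000 UMIs (70 cells) through 1000 to 2000 (59) and 2000 to 5722 (88) to the 17 deep naive cells, Tpsb2 stood at 7196, 11667, 20454 and 20151 CPM, against 28354 CPM in EAE cells. Cpa3 stood at 6653, 9329, 12865 and 13244 CPM in the same order. Mcpt4 varied less, at 31679, 42921, 39627 and 43063 CPM.

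Il13 stood at 101, 227, 899 and 780 CPM over the 4 depth ranges and Il4 at 1246, 1336, 905 and 316 CPM. Ccl7 stood at 4603 and 5177 CPM in the shallower ranges and 1336 and 2024 CPM in the deeper ones, against 5107 CPM in EAE cells. Hes1 stood at 2292, 1789, 1489 and 1223 CPM, against 311 CPM in EAE cells. Ribosomal protein RNA had medians of 19.5, 18.8, 10.7 and 9.98% over the same ranges. Low-depth naive cells therefore held less tryptase and carboxypeptidase RNA per UMI, less Il13, and more Il4, Ccl7 and ribosomal protein RNA, while Hes1 exceeded the EAE level at every depth.

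**Figure D5:**
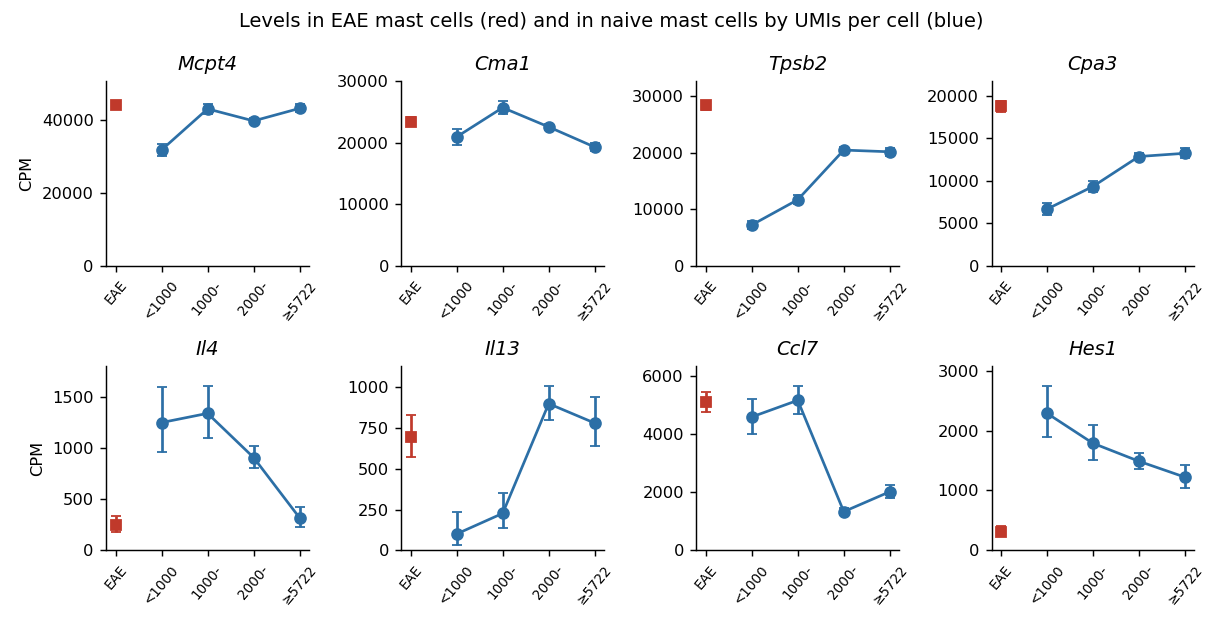
CPM of 8 genes in EAE mast cells and in naive mast cells of 4 UMI ranges, with 95% counting intervals. Tpsb2 and Cpa3 stand higher in deeper naive cells and highest in EAE cells, whereas Il4 is lowest in the deepest naive cells and in EAE cells.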

How the data were processed

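UMI counts per gene and barcode were deposited by the authors for both mouse libraries, with 1 cluster and condition per annotated barcode. They were made with Cell Ranger 3.1.0 on mm10, per the submitters' processing notes. The deposited annotation tables hold names, not measurements. Barcodes without a cluster were left out.

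Counts were summed over the cells of each library and divided by the total (CPM). Log2 ratios carry exact conditional binomial intervals, shares Clopper-Pearson intervals. Where a group had 0 UMIs, 3 counts over the whole group took its place. Thinning gives the hypergeometric expectation at 1000 UMIs, over the 19 EAE and 164 naive mast cells and the 152 EAE and 352 naive CD4 T cells that reach it. Cells with over 1% of UMIs from another type's list are mixed. Doublets (scrublet, scanpy 1.11.5) were kept: 93 of 5000 EAE barcodes were marked, but 2 of 3126 naive ones, too few to have worked. The lists' 467 genes, the 25 leading genes and the 10 highest and 10 lowest by the interval bound nearest 1 could be named. Members and lists were chosen with earlier results of these data known, and 4 alternatives were added after seeing the data. The sums were tested on simulated counts. Python 3.11.15, numpy 2.4.6, pandas 2.3.3, scipy 1.17.1, matplotlib 3.10.9, biopython 1.88, and edgeR 4.0.16 in R 4.3.3 (TMM factors as an alternative only) were used. Sequences were read from the GENCODE M21 transcript sequences, and coordinates from the annotation of the same release. The rat libraries and receptor contigs were not used here, and the values of some list genes are not reported here.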

Additional observations from a re-analysis of the deposited data

Results flagged for a closer look

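Among naive barcodes to which the annotation gives no cluster, 4 of 350 had more than 3% of their UMIs from the 6 proteases. The 3% level is a chosen threshold, since annotated mast cells reached down to 2.98% in EAE and 0.118% in naive dura. These 4 barcodes stand outside the comparisons above. Their protease share was 5.16 to 18.9%, their depth 534 to 777 UMIs and their mitochondrial share 6.18 to 19.2%. In the EAE library 0 of 421 such barcodes did. At that number of barcodes a share up to 0.713% could have gone unseen, and the highest value was 0.849%.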

How the results depend on the processing

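No paired analysis was possible because each condition was 1 pooled library, and for the same reason no library could be left out in turn. The EAE share was the lower one under every denominator or filter tried. The naive share was 2.30% among cells that reached 5722 UMIs and 5.34% with the scaled minimum, and the shares of lymphocytes and mast cells were 2.09% in EAE and 11.5% in naive dura, in place of 0.415% and 8.43%. The doublet filter, the marker filter and leaving out mixed cells gave 0.371 to 0.423% in EAE and 8.21 to 8.40% in naive dura. In place of 417 genes past 2-fold higher and 438 lower, there were 845 and 702 with a minimum of 10 UMIs, 138 and 191 with 50, 4360 and 765 with 1, and 257 and 190 of 1857 against the deep naive cells. TMM moved the median of all genes by 0.04 and Apoe below 2-fold. Of 114 named genes, 49 moved by more than their counting interval against the deep naive cells, where Il4, Csf1, Vegfa, Slc18a2, Tnfaip3, Pcna, Eno1 and 3 cathepsins were among those no longer past 2-fold and Mitf, Fos, Cd74, Alox5 and Retnlg newly past it. The deep naive cells include the 25782-UMI cell with class II RNA, and Cd74 was not compared with them without that cell. With each cell weighted equally 35 named genes moved, and Cma2, Ccl7, Junb, Nr4a1 and Dusp1 were no longer past 2-fold. Tpsb2 was among those newly past it, at 1.14. H2-Aa reversed to 0.30 with equal weights, 0.83 without mixed cells and 0.69 without the highest cell on each side, which rested on 1 naive cell. Hspb1, with 0 EAE UMIs, had 1.47 without the highest cells, a value set by the floor of 3 counts over the few naive UMIs left, so that no direction can be read. Without the highest cells, Ctsd, Ctsz, Fcer1a, Ccl7, Csf1, Apoe and Mmp8 also fell short of 2-fold. With 167418 UMIs in 19 EAE cells, 3 counts are 17.9 CPM, which limits what can be read for genes below that level.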

Other observations

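Gene groups with few calls also described these cells. Of 22 adhesion and homing genes, 8 were measured. Itgb1, the integrin beta 1 chain that binds matrix, was past 2-fold higher, with 25 EAE and 33 naive UMIs (1.42, 0.61 to 2.21), as was Itga2b, the platelet and mast cell integrin chain, with 10 and 11 UMIs (1.68). Itga4 had 2 EAE and 18 naive UMIs (-1.35). For eicosanoids, Hpgds, the prostaglandin D2 synthase of mast cells, stood at 281 CPM in EAE and 236 CPM in naive cells (0.25, -0.26 to 0.74), and Alox5ap, which hands arachidonate to 5-lipoxygenase, at 514 CPM in EAE and 663 CPM in naive cells (-0.37, -0.72 to -0.03). Of 15 survival and apoptosis genes, 9 were measured, 2 of them were lower, and Mcl1, which protects mast cells from apoptosis, was the best counted, with 187 EAE and 503 naive UMIs (0.39).

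Of 20 proliferation genes, 7 were measured, none was past 2-fold higher and 2 were lower, and those of dividing cells were concentrated in mixed cells. The 10 Birc5, 7 Cenpf and 6 Ccnb2 UMIs of EAE mast cells all came from the cell with neutrophil RNA, and the 58 Ube2c UMIs of naive mast cells all came from the 25782-UMI cell with class II RNA. Pcna, a replication clamp, was found in 13 of 19 EAE and 106 of 234 naive cells (-1.20, -1.93 to -0.54).

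RNA of the 6 proteases was present at low level in the other clusters. It stood at 116684 CPM in EAE mast cells against 27.3 CPM over all other EAE cells, and at 95212 CPM in naive mast cells against 77.2 CPM over all other naive cells. A UMI was found in 21.3% of other EAE cells and 33.0% of other naive cells, whose median depths were 11752.5 and 4278.5 UMIs, and 3 EAE and 1 naive cells outside the cluster held 20 or more.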
